A study of Sus scrofa with 24 samples.

Results

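Jejunum that carried a Peyer's patch was compared with patch-free jejunum in 6 crossbred pigs. Samples were chosen by their tissue label: 6 arrays labelled Peyer and 6 labelled Jejunum, 12 of the 24 arrays of the series, with 1 array of each tissue from every animal. The animals carry the numbers 68, 69, 70, 71, 73 and 75. All had been weaned at 28 days, were killed at 10 weeks of age after standard feeding without restriction, and received no treatment that differed between tissues. Each sample was a whole jejunal section, so it held epithelium, lamina propria, muscle wall and any lymphoid tissue together. From each section 200 ng of RNA (integrity number over 7.5) carrying the dye Cy3 was put on a pig Agilent 1-colour array. Levels are given as log2 signal relative to the 75th percentile of the array, and differences are Peyer minus Jejunum in log2 units, so that 1 unit is a 2-fold difference. In whole tissue, more cells of a type and more RNA per cell cannot be told apart.

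Peyer's patches are organised lymphoid follicles in the gut wall. Antigen enters through M cells of the epithelium above the follicle, B cells divide and mutate their antibody genes in germinal centres with help from follicular T cells, and stromal cells lay down the chemokines that hold each cell type in its zone. Naive lymphocytes arrive from the blood and primed cells leave again through the lymph. The villi around a patch, by contrast, are lined by enterocytes that digest and absorb food.

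For 4 genes the array's own 60-base probe is shown, because these genes mark the compartments on which the comparison turned: B cells (MS4A1, which encodes CD20), M cells (GP2, a receptor for bacteria on their surface), enterocytes (FABP2, the intestinal fatty acid binding protein) and proximal small intestinal identity (GATA4, a transcription factor). Each is given 5′ to 3′ as in the scanner output.
MS4A1: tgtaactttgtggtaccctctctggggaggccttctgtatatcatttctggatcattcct
GP2: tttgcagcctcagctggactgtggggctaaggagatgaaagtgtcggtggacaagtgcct
FABP2: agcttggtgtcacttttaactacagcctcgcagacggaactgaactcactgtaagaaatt
GATA4: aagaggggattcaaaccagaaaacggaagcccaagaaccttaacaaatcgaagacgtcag
The MS4A1 probe differed by 7.1 and the GP2 probe shown by 5.08, both higher in Peyer samples. MS4A1 was well above background on 5 of 6 Jejunum arrays, so its difference is limited by background there. The FABP2 probe differed by -1.18 and the GATA4 probe by -2.08.

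The labels were borne out by the defining markers of B cells, PAX5 aside, and of enterocytes. The B cell markers CD79A and CD79B averaged 1.22 and 3.55 in Peyer samples, against -2.99 and -2.24 in Jejunum samples. PAX5, also a B cell marker and above background on all 12 arrays, differed little, at -1.91 in Peyer and -2.28 in Jejunum samples. The enterocyte markers SI and VIL1, measured above background on every array, averaged 4.39 and 3.93 in Peyer samples, against 5.67 and 4.98 in Jejunum samples. FCER2, a marker of follicular dendritic cells, was not above background on any of the 12 arrays. Of the pancreatic markers, PNLIP was above background on 1 Peyer array and no Jejunum array, and CPB1 on no Peyer array and 1 Jejunum array, while CPA1 was above background on all 12 at -2.61 in Peyer and -2.26 in Jejunum samples.

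Both arrays of an animal shared a slide. Animals 68 and 69 had slide 4, animals 70 and 71 had slide 5, and animals 73 and 75 had slide 6, which was scanned on another day. The 75th percentile signal ranged from 876.7 to 2261.9 on Peyer arrays and from 680.9 to 1001.3 on Jejunum arrays. Between 70.5% and 75.4% of probes were well above background on Peyer arrays, and between 68.6% and 73.2% on Jejunum arrays. Peyer array 69 had the strongest signal. The Peyer sample of animal 71 stood apart: its nearest array was the Jejunum array of the same animal (r = 0.993 across probes), whereas each of the other Peyer arrays was nearest to another Peyer array. Results are therefore given with animal 71. They are also given without it for each described gene whose call changed and for each list count that moved by over 1.5 times.

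Of 10445 named genes tested, 1412 (13.5%) were called, that is, had an adjusted p under 0.05 in a paired limma fit and differed at least 2-fold. Of these, 632 (6.05%) were higher and 780 (7.47%) lower in Peyer samples, and the median difference over all named genes was -0.12. Larger differences were mostly upward: 141 genes were higher and 38 lower by at least 2 log2 units, and 29 were higher and 0 lower by at least 4. In 579 of the higher genes and 675 of the lower genes all 6 animals differed in the same direction. Among these called genes, the tissues did not overlap over all 12 arrays for 242 higher and 237 lower genes. Overlap was not counted over all named genes, so these counts describe the called genes and test nothing. The balance of higher and lower calls depended on scaling. Higher genes made up 44.8% of calls here, 63.8% when arrays were centred on their median (837 higher and 475 lower), 54.4% after quantile normalization and 57.1% with the log2 values of the authors' table. Centring on the median moved the median difference of all probes from -0.15 to 0.03.

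Without animal 71, 1900 genes (18.2%) were called, 781 (7.48%) higher and 1119 (10.7%) lower. Of these, 1400 were also called with all 6 animals, and no gene was called in opposite directions by the 2 fits. On slide 5 alone, with animals 70 and 71, no gene was called (327 had an unadjusted p under 0.05 in limma). Slide 4 alone called 163 genes and slide 6 alone 1576.

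The 20 genes with the highest differences outside the B cell, germinal centre and smooth muscle lists lay between 3.02 and 6.66. FABP6, the ileal bile acid binding protein, led them. Its level was 2.71 at the lowest, 6.66 at the median and 6.78 at the highest in Peyer samples, against -2.21, -1.3 and 1.66 in Jejunum samples. Every Peyer sample lay above every Jejunum sample, and the lowest was that of animal 71. FABP6 was higher by 6.66 ± 0.52 (SE of the fit, adjusted p = 0.003 by limma). The 3 FABP6 probes differed by 6.66 to 6.72 but share most of their bases, so they are not independent. GP2 was -1.55, 2.87 and 4.75 in Peyer samples (lowest, median and highest), against -4.48, -4.09 and -3.58 in Jejunum samples. No overlap was seen, with animal 71 included. GP2 was higher by 6.65 ± 0.65 (adjusted p = 0.0047 by limma).

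VPREB1, a surrogate light chain of the precursor B cell receptor, was higher by 5.51 ± 0.62, and its 3 probes by 5.44 to 5.51. C3H2orf40 (4.83 ± 0.51) and PGAM2, a phosphoglycerate mutase known from muscle (4.7 ± 0.47), followed. The sulfotransferase gene CHST8 ranged over -2.89, 1.56 and 1.76 in Peyer samples and -4.45, -3.75 and -3.28 in Jejunum samples (lowest, median, highest). CHST8 in the Peyer sample of animal 71 stood next to the Jejunum samples, and the other 5 Peyer samples lay far above it. CHI3L1, a chitinase-like secreted protein, was higher by 4.43 ± 0.54, and LTB, the lymphotoxin beta subunit that organises lymphoid stroma, by 4.43 ± 0.29. Further genes of this set were NPM2 (3.91), a nuclear chaperone first described in eggs, IGFBPL1 (3.85), the lymphoid membrane protein gene LRMP (3.83), the serine protease gene HTRA4 (3.83), DAPL1 (3.22) and SHCBP1 (3.02). Probes of a gene did not always match: those of IGFBPL1 differed by 0.73 to 5.02.

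**Figure D1:**
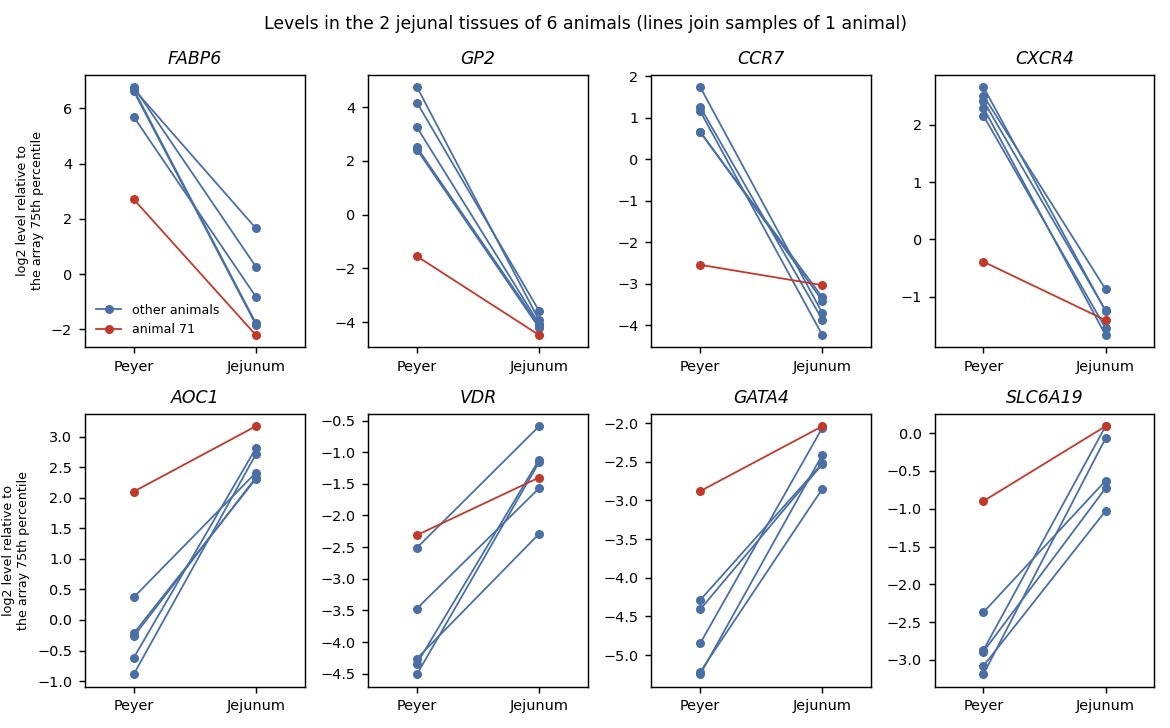
Log2 level relative to the array's 75th percentile (vertical axis) of 8 genes in Peyer samples (left) and Jejunum samples (right), with a line joining the samples of 1 animal and animal 71 in red. FABP6, GP2, CCR7 and CXCR4 are higher and AOC1, VDR, GATA4 and SLC6A19 lower in the Peyer samples, and the red lines are flatter than most others.

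Genes that bring lymphocytes into lymphoid tissue and place them there were called in both directions. Of 27 tested chemokine, chemokine receptor and homing genes, 11 were called higher and 3 lower (median 0.72), against 6.05% higher and 7.47% lower over all named genes. Leaving out animal 70 left 7 higher. CCR7, the receptor that guides naive T cells and dendritic cells to the T zone, was -2.54, 0.91 and 1.74 in Peyer samples (lowest, median, highest), against -4.23, -3.55 and -3.03 in Jejunum samples. In animal 71 CCR7 differed by 0.5 only, against 3.97 to 5.44 in the other animals. CCR7 was higher by 4.08 ± 0.62 (adjusted p = 0.0047 by limma), although 1 of its 3 probes differed by only 0.85 and was not called. CCL19, a ligand of CCR7, was 1.07, 4.51 and 5.55 in Peyer samples, against 0.1, 1.0 and 1.24 in Jejunum samples. Its groups overlapped only through animal 71, and its difference was 3.3 ± 0.53 (adjusted p = 0.0049 by limma), with the other CCL19 probe at 0.49 and not called. CXCR4, which places B cells in the dark zone, was higher by 3.28 ± 0.38 on a probe that 3 others matched (3.28 to 3.52).

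Chosen after their values were seen, 3 further members show how far the vascular and stromal address genes moved. MADCAM1, the endothelial ligand for gut-homing lymphocytes, was higher by 1.23 ± 0.26. CXCL12, the ligand of CXCR4, was higher by 1.18 ± 0.21, with its 5 probes between -0.41 and 1.36. CCL21, another CCR7 ligand, was higher by 1.04 ± 0.33, but its call was lost without animal 69 (1.05), 70 (0.71), 73 (0.93) or 75 (1.06). The 3 CCL21 probes differed by 0.57 to 1.04, and only the one used here was called. The lower members were CHST4 (-1.94 ± 0.26), a sulfotransferase that modifies L-selectin ligands, and 2 epithelial chemokines named after their values were seen, CCL25 (-1.15) and CCL28 (-1.18), which attract lymphocytes to the mucosa outside follicles. With arrays centred on the median CCL25 (-0.97) and CCL28 (-1.0) were not called.

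T cell genes were described in separate lists for follicular helper and for core T cells. Of 10 tested follicular helper and checkpoint genes 6 were called higher and 0 lower (median 1.52), and without animal 71 7 were higher and 1 lower. After normexp background correction 3 were called higher (median 0.7). Over all named genes 6.05% were called higher and 7.47% lower, or 7.48% and 10.7% without animal 71. ICOS, a costimulator of follicular T cells, was -0.28, 1.98 and 2.5 in Peyer samples, against -1.6, -0.62 and -0.45 in Jejunum samples (lowest, median, highest). No values overlapped between tissues, and ICOS was higher by 2.55 ± 0.42 (adjusted p = 0.005 by limma). BCL6, the master regulator of germinal centre B cells and follicular helper T cells, was higher by 2.31 ± 0.29. POU2AF1, a B cell coactivator, was higher by 3.68 ± 0.35. POU2AF1 is also counted among the lymphoid transcription factors, and BCL6 serves B cells too, so the 6 are not T cell genes alone. Of 14 core T cell genes, on 1 probe each, only LEF1 was called (1.93 ± 0.39). LEF1, a factor of naive and memory T cells, differed by -0.06 in animal 71. The T cell marker LCK, chosen after its values were seen, averaged 1.81 in Peyer and 1.49 in Jejunum samples on the probe used here. Over its 4 probes LCK differed by 0.31 to 1.52, and 2 of them were called higher. CD3E averaged 4.8 in Peyer and 4.51 in Jejunum samples (difference 0.29 ± 0.17, adjusted p = 0.2 by limma), and CD4 differed by 0.76 ± 0.22 without reaching 2-fold. At any size 8 of the 14 were higher at adjusted p under 0.05 and 0 lower, against 21.1% and 28.8% of all named genes.

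Of 19 tested follicular dendritic and lymphoid stromal genes 10 were called higher and 0 lower (median 1.04), against 6.05% and 7.47% of all named genes. Of those not called, 3 were lower by less than 2-fold at adjusted p under 0.05. CLU, a chaperone secreted by follicular dendritic cells, was 4.01, 6.8 and 7.33 in Peyer samples, against 3.03, 3.55 and 3.78 in Jejunum samples (lowest, median, highest). Again without overlap, CLU was higher by 2.95 ± 0.35. MFGE8, with which these cells mark dying lymphocytes for uptake, was higher by 2.31 ± 0.37, and by 0.15 in animal 71. The adhesion molecules ICAM1 (1.93 ± 0.28) and, chosen after its values were seen, VCAM1 (1.87 ± 0.33) were higher. These lists share CR2, CXCL13, CCL19, CCL21 and MADCAM1 with other lists in part, so their counts are not independent.

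Across 34 tested TNF family and cytokine genes, 7 were called higher and 2 lower (median 0.27), and without animal 71 11 were higher and 3 lower. The shares of all named genes were 6.05% and 7.47%, or 7.48% and 10.7% without animal 71. Without animal 73 only 1 of the 34 was lower. Besides LTB, the TNF family members called higher were CD40 (2.25 ± 0.31), CD70 (2.04 ± 0.44) and CD27 (1.42 ± 0.32), through which B and T cells stimulate each other. CD70 and CD27 were not called after normexp background correction (0.63 and 0.86). Probes disagreed for LTA, the lymphotoxin alpha gene, which differed by 0.2 on the probe used here and by 4.69 on its other probe, which was called, and 2 of 3 TNF probes were called (0.74 on the probe used here to 1.06); both genes were chosen after their values were seen. The death ligand gene TNFSF10 fell, by 1.48 ± 0.27. IL16, a T cell attractant, was 1.66, 3.41 and 3.48 in Peyer samples, against 0.9, 1.43 and 1.59 in Jejunum samples (lowest, median, highest). No overlap remained even with animal 71, and IL16 was higher by 1.73 ± 0.29, although by 0.07 in animal 71. Of 16 tested microbial sensor genes 6 were called higher and 0 lower (median 0.85), and without animal 71 8 were higher and 1 lower. After normexp correction 4 were higher with a median of 0.06, and 5 were higher with a median of 0.5 when the log2 values of the authors' table were used. Among them were TLR2 (1.68 ± 0.25), a sensor of bacterial lipoproteins, and CD14 (1.48 ± 0.23), a co-receptor for lipopolysaccharide. TLR3, a sensor of double-stranded RNA, differed by -0.9 ± 0.18, short of 2-fold; without animal 71 it was -1.09 and called, and it was chosen after its values were seen.

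Antigen receptor signalling genes and lymphoid transcription factors were higher in part. Of 20 tested signalling genes 7 were called higher and 0 lower (median 0.79), against 6.05% and 7.47% of all named genes. SYK, the kinase next to the B cell receptor, was 1.11, 3.57 and 3.78 in Peyer samples, against 0.15, 0.23 and 0.78 in Jejunum samples (lowest, median, highest). Every Peyer sample was above the Jejunum samples, and SYK was higher by 2.83 ± 0.33. RASGRP3, which couples the receptor to Ras, was higher by 3.19 ± 0.39. Of 18 tested lymphoid transcription factors 8 were called higher and 0 lower (median 0.86), and 1 lower without animal 71. EBF1, which commits cells to the B lineage, was higher by 2.29 ± 0.27 and SPI1, shared by B and myeloid cells, by 2.35 ± 0.26, with 1 of 3 SPI1 probes at 0.18.

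Antigen presentation genes moved unevenly. Of 15 tested class II and processing genes 7 were called higher and 1 lower (median 0.77), against 6.05% and 7.47% of all named genes. At any size, 14 of 15 were higher at adjusted p under 0.05, against 21.1% of all named genes. The largest differences were those of the class II modifiers of B cells, SLA-DOB (2.36 ± 0.32) and SLA-DOA (2.31 ± 0.34). SLA-DOB was -1.56, -0.12 and 0.27 in Peyer samples, against -3.12, -2.69 and -2.12 in Jejunum samples (lowest, median, highest), without overlap. SLA-DMB, the peptide exchange factor, was higher by 1.2 ± 0.16 and CD83, a marker of mature dendritic cells and activated B cells, by 1.81 ± 0.29. The other SLA-DMB probe (0.43) and the other CD83 probe (1.07) were not called. The classical class II gene SLA-DRA, chosen after its values were seen, differed by 0.65 ± 0.14 (adjusted p = 0.0097 by limma), short of 2-fold. The lower member was LGMN, a lysosomal protease (-1.31 ± 0.28), which was not called after normexp correction (-0.9) or with the log2 values of the authors' table (-0.6).

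Genes of other leucocytes were mostly not called. Over 56 tested genes of macrophages and dendritic cells, mast cells and eosinophils, neutrophils, cytotoxic lymphocytes and plasma cells, 7 were higher and 1 lower (median -0.05), against 6.05% and 7.47% of all named genes, and 4 were higher after normexp correction. The higher count was 10 without animal 71 and 2 without animal 70, and the lower count 3 without animal 69, 2 without animal 71 and 0 without animal 75. The lower gene was GZMB, the cytotoxic granule protease (-1.11 ± 0.21), whose call was lost without animal 75 (-0.99). The lists differed from each other. Of the 9 neutrophil genes 3 were called higher and 0 lower, with a median of 0.97. Their higher count was 5 without animal 71 and 1 without animal 70. The 16 cytotoxic and intraepithelial lymphocyte genes had a median of -0.55, and 8 of them were lower and 2 higher at any size. Over all named genes 28.8% were lower and 21.1% higher at any size.

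Division and DNA maintenance genes were called in the higher direction. Of 24 tested replication and mitosis genes 15 were called higher and 0 lower (median 1.12), with and without animal 71, and 11 higher without animal 69. The shares of all named genes called were 6.05% higher and 7.47% lower. Chosen after their values were seen, MKI67 (-0.03 to 0.09 over 3 probes) and CDC6 (-0.5) were not called. Of 25 repair and antibody diversification genes 9 were called higher (median 0.73, or 0.3 after normexp correction), and of 18 chromatin genes 7 (median 0.75), with 0 lower in both. EXO1, an exonuclease of mismatch repair, was -2.7, -0.02 and 0.06 in Peyer samples, against -3.62, -3.03 and -2.47 in Jejunum samples (lowest, median, highest). Its groups overlapped only through animal 71, and EXO1 was higher by 2.61 ± 0.31. PARP1, a sensor of DNA breaks, was higher by 1.67 ± 0.2, and FANCI, of the crosslink repair pathway, by 1.74 ± 0.25. FANCI differed by 0.37 in animal 71 and by 1.78 to 2.48 in the other animals. Its 4 probes differed by 0.51 to 1.74, and 2 were called.

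Among chromatin genes, HELLS, a helicase needed for DNA methylation, was higher by 1.89 ± 0.27. EZH2, the histone methyltransferase on which germinal centre B cells depend, was higher by 1.77 ± 0.19, and DNMT1, which maintains DNA methylation through division, by 1.68 ± 0.23. DNMT1 was 3.14, 4.67 and 4.94 in Peyer samples, against 2.51, 2.67 and 3.16 in Jejunum samples (lowest, median, highest). Only animal 71 brought its groups into overlap, as for EZH2, HELLS and HMGB2 (1.61 ± 0.22), a DNA-bending protein of dividing cells. Of 19 nucleotide synthesis and one-carbon genes 4 were called higher and 2 lower (median 0.55), against 6.05% and 7.47% of all named genes. Without animal 68 or 73 the higher count was 2, and without animal 69 the lower count was 1. DUT, which keeps uracil out of DNA, was higher by 2.13 ± 0.24, whereas SHMT2, the mitochondrial serine hydroxymethyltransferase, was lower by 1.65 on the log2 scale, in animal 71 (-1.73) as in the others (-2.22 to -1.39). The other SHMT2 probe differed by -0.02, the probe called was well above background on 4 of 6 Peyer arrays, and its call was lost after normexp correction (-0.98) and with the log2 values of the authors' table (-0.77).

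**Figure D2:**
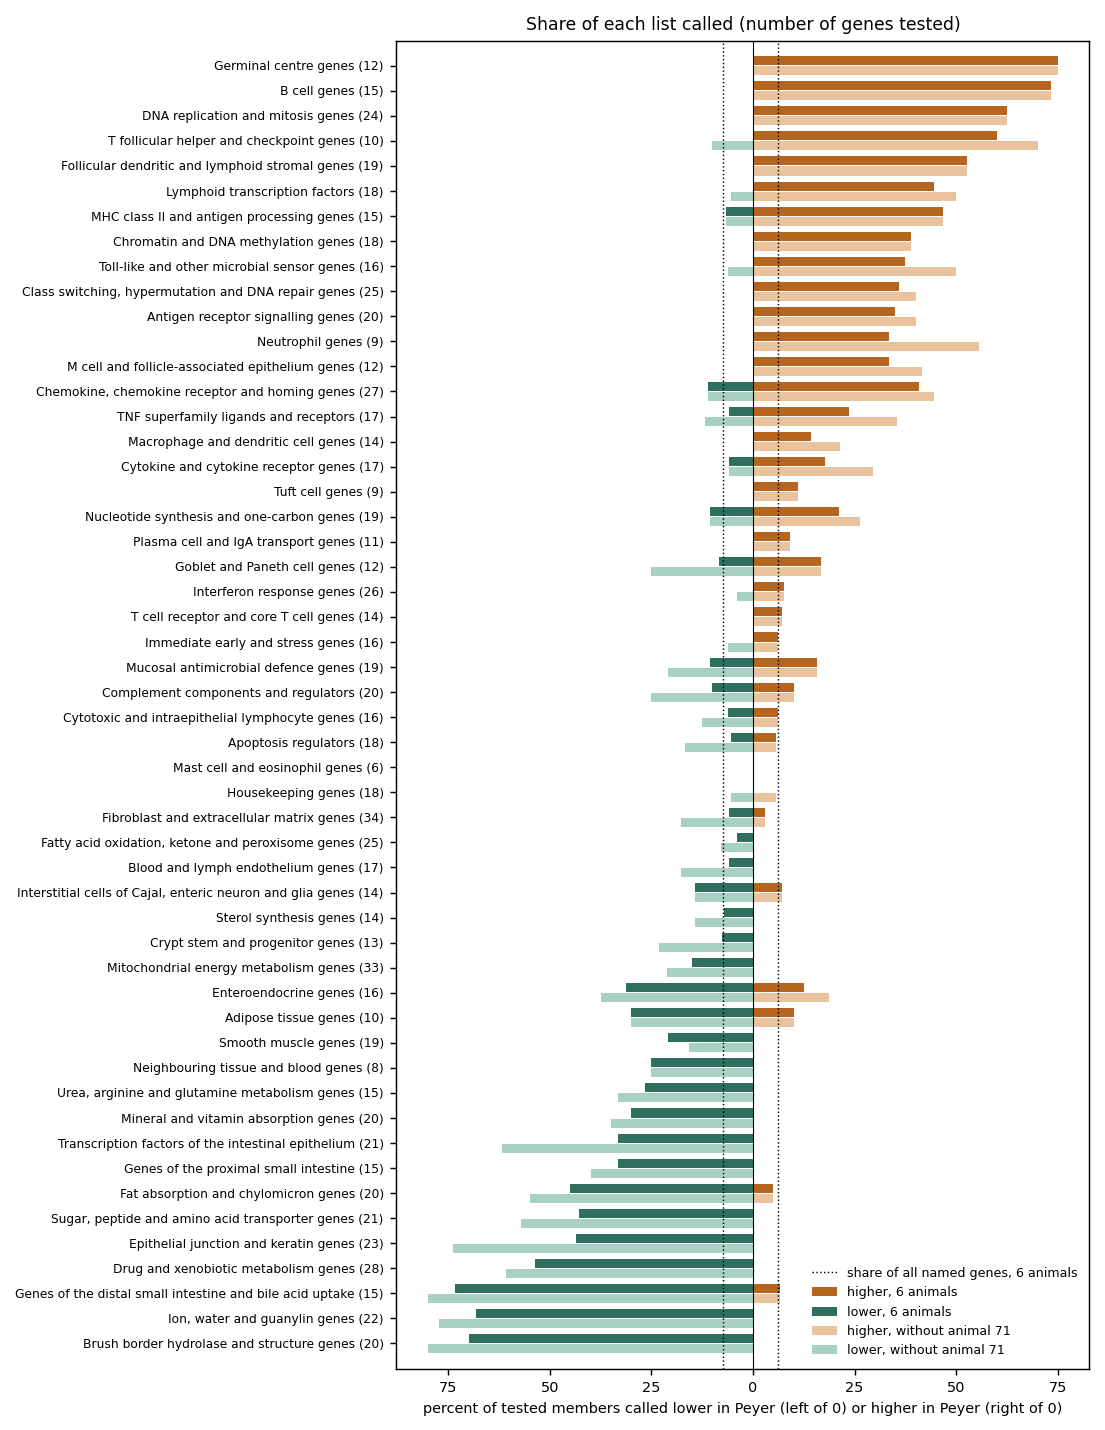
Percent of the tested members of each gene list called lower (left of 0) or higher (right of 0) in Peyer samples, with all 6 animals (dark bars) and without animal 71 (light bars). Dotted lines mark the shares over all named genes, 7.47% lower and 6.05% higher, and the number of genes tested stands after each list name.

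The epithelium above the follicle and the secretory cells changed in a few members. Of 12 tested M cell and follicle-associated epithelium genes 4 were called higher and 0 lower (median 0.46). Besides GP2 these were MARCKSL1 (1.76 ± 0.25), SCG5 (1.59 ± 0.24) and SPIB (1.43 ± 0.24), the factor that M cells need and B cells share. TFF1, a trefoil peptide of surface mucous cells in the stomach, was -3.54, -1.74 and 0.66 in Peyer samples, against -5.61, -4.39 and -3.58 in Jejunum samples (lowest, median, highest). The tissues did not overlap, and TFF1 was higher by 3.1 ± 0.38. Animal 71 differed by 2.5 for TFF1, within the range of the other animals (1.94 to 4.79). Over 50 tested genes of crypt, goblet, Paneth, enteroendocrine and tuft cells, 5 were higher and 7 lower (median -0.23), and without animal 71 12 were lower. The shares of all named genes were 6.05% higher and 7.47% lower, and 10.7% lower without animal 71. The 2 goblet and Paneth genes called higher were TFF1 and the kallikrein gene KLK1 (2.24 ± 0.26), and the lower one was MUC2, the main intestinal mucin (-1.21 ± 0.28), not called after normexp correction (-0.98). Among hormone cell genes GCG, which encodes the glucagon-like peptides, was lower by 1.86 on the log2 scale and PAX6, a factor of hormone cells, was higher by 2.0 ± 0.33. PAX6 was above background on 4 of 6 Jejunum arrays, and after normexp correction it was not called (0.52).

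Over 39 tested antimicrobial and complement genes, 5 were higher and 4 lower (median -0.06), and without animal 71 9 were lower. For all named genes the shares were 6.05% higher and 7.47% lower, and 10.7% lower without animal 71. The antimicrobial genes called higher were CHI3L1, DEFB1 (2.77 ± 0.4), a beta defensin, and MUC20 (1.44 ± 0.24), a membrane mucin. The 3 MUC20 probes disagreed (-0.66 to 1.52), and 2 were called. DEFB1 was -1.75, 1.27 and 2.52 in Peyer samples, against -2.43, -1.8 and -1.43 in Jejunum samples (lowest, median, highest). The overlap came from animal 71 alone. Those called lower were SLPI, an inhibitor of neutrophil proteases (-1.47 ± 0.29), and ALPI, intestinal alkaline phosphatase (-2.13 ± 0.28). In the complement system CD55, which protects cells from complement, was higher by 2.14 ± 0.3 and C5, the component that starts the terminal pathway, lower by 1.51 on the log2 scale. C5 was 3.04, 3.3 and 4.47 in Peyer samples, against 4.57, 5.0 and 5.26 in Jejunum samples, without overlap.

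On the lower side, the 20 genes that fell most lay between -2.55 and -2.02. AOC1, the diamine oxidase that breaks down histamine, was -0.89, -0.25 and 2.1 in Peyer samples, against 2.31, 2.56 and 3.17 in Jejunum samples (lowest, median, highest). The tissues did not overlap, and the highest Peyer sample was that of animal 71. AOC1 differed by -2.55 ± 0.32 (adjusted p = 0.0047 by limma). VDR, the vitamin D receptor, was -4.51, -3.87 and -2.31 in Peyer samples, against -2.29, -1.28 and -0.59 in Jejunum samples, and differed by -2.21 ± 0.31. The separation between its groups was narrow. Also in this set were OGDHL (-2.19), an oxoglutarate dehydrogenase-like enzyme, CA4 (-2.19), a membrane carbonic anhydrase, ATP7B (-2.14), a copper exporter, AGT (-2.05), the precursor of angiotensin, and DPEP1 (-2.03), a membrane dipeptidase. The other OGDHL probe differed by -0.71 and was not called.

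Calls among brush border, nutrient transporter and fat absorption genes were in the lower direction, with 1 exception. Of 20 tested brush border genes 14 were called lower and 0 higher (median -1.17), against 7.47% and 6.05% over all named genes, and of 21 sugar, peptide and amino acid transporters 9 were called lower and 0 higher (median -0.87). SLC6A19, the main carrier of neutral amino acids, was -3.19, -2.88 and -0.9 in Peyer samples, against -1.03, -0.35 and 0.09 in Jejunum samples (lowest, median, highest). The overlap came from animal 71, and SLC6A19 differed by -2.17 ± 0.27. The fructose carrier SLC2A5 was lower without overlap (-2.03 ± 0.27), and the glucose carriers SLC2A2 (-1.68 ± 0.24) and SLC5A1 (-1.18 ± 0.19) and the peptide carrier SLC15A1 (-1.14 ± 0.2) were lower. Sucrase-isomaltase (SI) differed by -1.28 ± 0.21. SLC15A1 was not called with arrays centred on the median (-0.96), nor SLC5A1 after quantile normalization (-0.97).

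Of 20 tested fat absorption genes 9 were called lower and 1 higher (median -0.9), against 7.47% and 6.05% of all named genes. With arrays centred on the median 4 of the 20 were called lower. ABCG8, a subunit of the sterol exporter, was -4.18, -3.77 and -1.79 in Peyer samples, against -1.66, -1.47 and -1.02 in Jejunum samples (lowest, median, highest). Every Peyer sample was below the Jejunum samples, and ABCG8 differed by -2.05 ± 0.25. DGAT1, which makes triglyceride (-1.53 ± 0.21), and MTTP, which loads it onto chylomicrons (-1.1 ± 0.19), were lower. The member that rose was PLIN2, a coat protein of lipid droplets (1.22 ± 0.26), which differed by -0.14 in animal 71. MTTP was not called with arrays centred on the median (-0.93).

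The fatty acid and bile acid binding proteins of the enterocyte did not move together. FABP6 was higher by 6.66, while FABP2 was 5.69, 6.3 and 7.76 in Peyer samples, against 7.44, 7.56 and 8.01 in Jejunum samples (lowest, median, highest). Without animal 71 the FABP2 groups did not overlap, and the difference was -1.18 ± 0.18 over all animals (not called with arrays centred on the median, -1.0). FABP1, the liver-type protein, chosen after its values were seen, differed by -0.9 ± 0.17, short of 2-fold, and by -1.07 without animal 71, where it was called. Of 15 tested genes of the distal small intestine and of bile acid uptake, FABP6 alone was called higher and 11 were called lower (median -1.53). The same counts were found with arrays centred on the median. The shares of all named genes called were 6.05% higher and 7.47% lower. The ileal bile acid importer SLC10A2 differed by 0.11 ± 0.13 (adjusted p = 0.49 by limma) and was -3.67 to -3.17 in Peyer and -3.87 to -2.92 in Jejunum samples. The exporter subunits SLC51B (-1.19 ± 0.19, called) and SLC51A (-0.76 ± 0.15, not called) and the bile acid receptor NR1H4 (-0.89 ± 0.23, not called) differed downward, as did NR0B2, a target of that receptor (-1.63 ± 0.25, called). SLC10A2, SLC51A, SLC51B and NR1H4 were chosen after their values were seen, and NR1H4 was called without animal 71 (-1.09). The cobalamin genes AMN (-1.46) and TCN2 (-1.6), also chosen afterwards, and the guanylate cyclase ligand GUCA2B (-1.53) were lower.

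Of 15 genes of the proximal small intestine 5 were called lower and 0 higher (median -0.3), against 7.47% and 6.05% of all named genes. Without animal 69 or 75, 1 of the 15 was called higher. GATA4, which sets proximal identity, was -5.25, -4.63 and -2.88 in Peyer samples, against -2.85, -2.46 and -2.04 in Jejunum samples (lowest, median, highest). The tissues did not overlap, and GATA4 differed by -2.08 ± 0.26, with 1 of 3 probes not called (-0.78). The others were GATA6 (-1.41 ± 0.2), the carotenoid cleaving enzyme BCO1 (-1.9 ± 0.39), the retinol binding protein RBP2 (-1.08 ± 0.18) and SST, the somatostatin gene (-1.09 ± 0.25). RBP2 (-0.9) and SST (-0.92) were not called with arrays centred on the median, and the SST call was lost without animal 70 (-0.96) or 75 (-0.99). Lower calls thus occurred in lists of both ends of the small intestine.

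**Figure D3:**
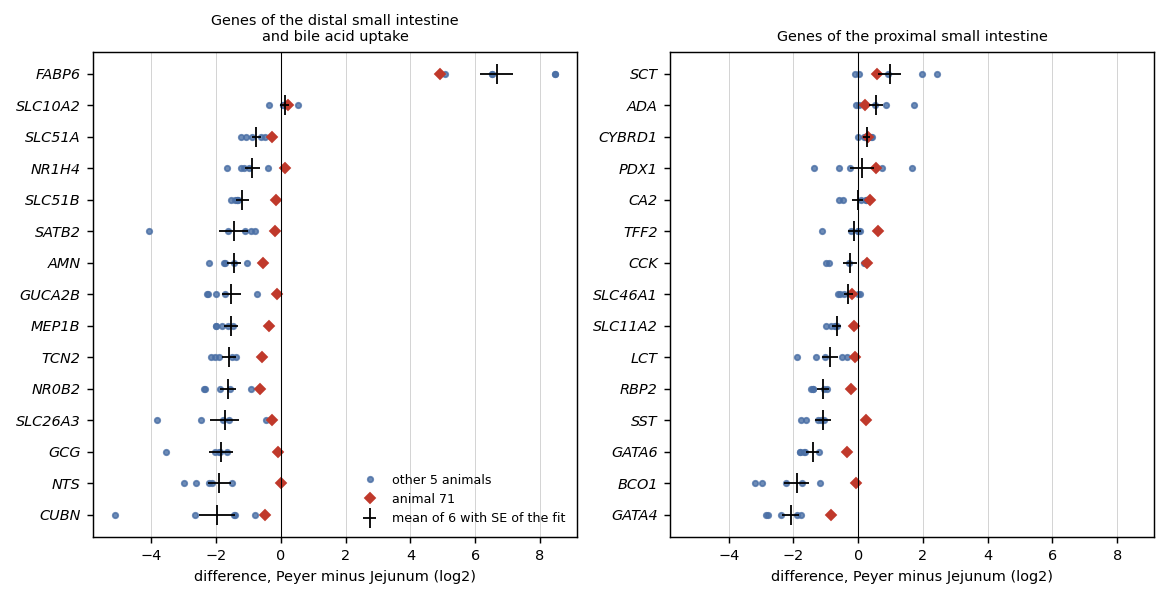
Log2 difference, Peyer minus Jejunum, of the tested genes of the distal small intestine and bile acid uptake (left) and of the proximal small intestine (right), with a point for each animal, animal 71 as a red diamond and a cross for the mean with the SE of the fit. FABP6 lies between 4.92 and 8.47, apart from the other distal genes.

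Ion transport, drug metabolism, junction and transcription factor genes of the epithelium were called in the lower direction alone, and their counts depended on scaling and on animal 71. The shares of all named genes called were 7.47% lower and 6.05% higher. Of 22 ion, water and guanylin genes 15 were called lower and 0 higher (median -1.09), and 9 with arrays centred on the median. Of 28 drug and xenobiotic metabolism genes 15 were called lower and 0 higher (median -1.01), with 8 under that centring and 10 without the replicate block. Of 20 mineral and vitamin genes 6 were called lower (median -0.73), among them VDR, the phosphate carrier SLC34A3 (-1.21) and the zinc exporter SLC30A1 (-1.15). SLC30A1 was not called with arrays centred on the median (-0.97), nor SLC34A3 after quantile normalization (-0.99).

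Of 21 epithelial transcription factors 7 were called lower and 0 higher (median -0.91), against 7.47% and 6.05% of all named genes. The lower count was 13 without animal 71 (10.7% of all named genes), 4 without animal 73 or 75 and 4 with arrays centred on the median. HNF4G, an enterocyte factor, was -3.51, -2.3 and -0.69 in Peyer samples, against -0.68, -0.48 and -0.07 in Jejunum samples (lowest, median, highest). The tissues just failed to overlap, and HNF4G differed by -1.86 ± 0.32. Of 23 junction and keratin genes 10 were called lower and 0 higher (median -0.98), with 17 without animal 71, 4 without animal 73 and 3 with arrays centred on the median. KRT19, a keratin of simple epithelia, was 3.57, 3.97 and 5.19 in Peyer samples, against 5.28, 5.54 and 5.94 in Jejunum samples, without overlap, and differed by -1.48 ± 0.2. CLDN23, a tight junction claudin (-1.6 ± 0.18), and DSP, the desmosome linker (-1.1 ± 0.18), were lower, though CLDN23 was not called with the log2 values of the authors' table (-0.95) and DSP not with arrays centred on the median (-0.92).

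Energy metabolism genes differed downward by less than 2-fold for the most part. Of 33 mitochondrial genes 5 were called lower and 0 higher (median -0.65), against 7.47% and 6.05% of all named genes. At any size 26 were lower and 0 higher, against 28.8% and 21.1% of all named genes. The 5 were the complex I subunit NDUFV1 (-1.61 ± 0.33), the cytochrome oxidase subunit COX4I1 (-1.38 ± 0.28), the gluconeogenic enzyme PCK1 (-1.26 ± 0.26), the coactivator PPARGC1A (-1.22 ± 0.24) and malate dehydrogenase MDH2 (-1.04 ± 0.28). MDH2 lost its call without animal 69 (-0.73). PCK1 differed by 0.08 in animal 71 and was not called without the replicate block (-1.26). Over 54 genes of fatty acid oxidation, sterol synthesis and urea and arginine metabolism 6 were called lower and 0 higher (median -0.44), and 9 lower without animal 71. Over all named genes 7.47% were called lower, and 10.7% without animal 71. The 6 included the peroxisomal enzyme EHHADH (-1.69 ± 0.29), the urea cycle enzyme OTC (-1.16 ± 0.2) and ASS1 of citrulline and arginine metabolism (-1.26 ± 0.22). OTC was not called with arrays centred on the median (-0.99). ASS1 was 4.97, 5.57 and 5.83 in Peyer samples, against 6.11, 6.8 and 7.06 in Jejunum samples (lowest, median, highest), without overlap.

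The wall of the intestine varied between animals. Over the 19 smooth muscle genes, 4 were called lower and 0 higher with a median of -1.23, against 7.47% and 6.05% of all named genes. By animal the median was -0.55 (68), -2.29 (69), -3.24 (70), -0.58 (71), -0.72 (73) and 0.53 (75). Slide 4 alone gave a median of -1.43, slide 5 one of -2.02 and slide 6 one of -0.13, but the 2 animals of a slide differed from each other. The lower count was 15 without animal 75, 1 without animal 68 or 69 and 0 without animal 70 or 73. MYH11, the smooth muscle myosin, differed by -2.32 ± 0.66 (adjusted p = 0.023 by limma), between -5.34 and -0.16 by animal, and lost its call without animal 70 (-1.97) or 73 (-2.35). The part of muscle in each section in the other differences was not tested. Genes of fibroblasts and matrix, endothelium, and enteric neurons and glia numbered 65. Of these 2 were higher and 5 lower (median -0.37), against 6.05% and 7.47% of all named genes. The lower count was 11 without animal 71, 2 without animal 69, 3 without animal 70, 1 without animal 73 and 1 with arrays centred on the median. THY1, a surface protein of fibroblasts and T cells, was the fibroblast gene called higher (1.76 ± 0.31). Of 18 housekeeping genes none was called (9 had an unadjusted p under 0.05 in limma), and their median was -0.06. Without animal 71 1 was higher and 1 lower, and without animal 69 or 75 1 was higher. GAPDH differed by -0.57 ± 0.18 and ACTB by -0.38 ± 0.15, and ACTB changed sign after quantile normalization (0.07). The lists of interferon response, immediate early response and apoptosis held 60 tested genes. Of them 4 were higher and 1 lower (median -0.12), against the same shares of all named genes. The higher count was 2 without animal 70 or 73 and 2 after normexp correction, and neither of the 2 interferon response genes called higher was called without the replicate block. The lower count was 5 without animal 71 and 2 without animal 69.

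**Figure D4:**
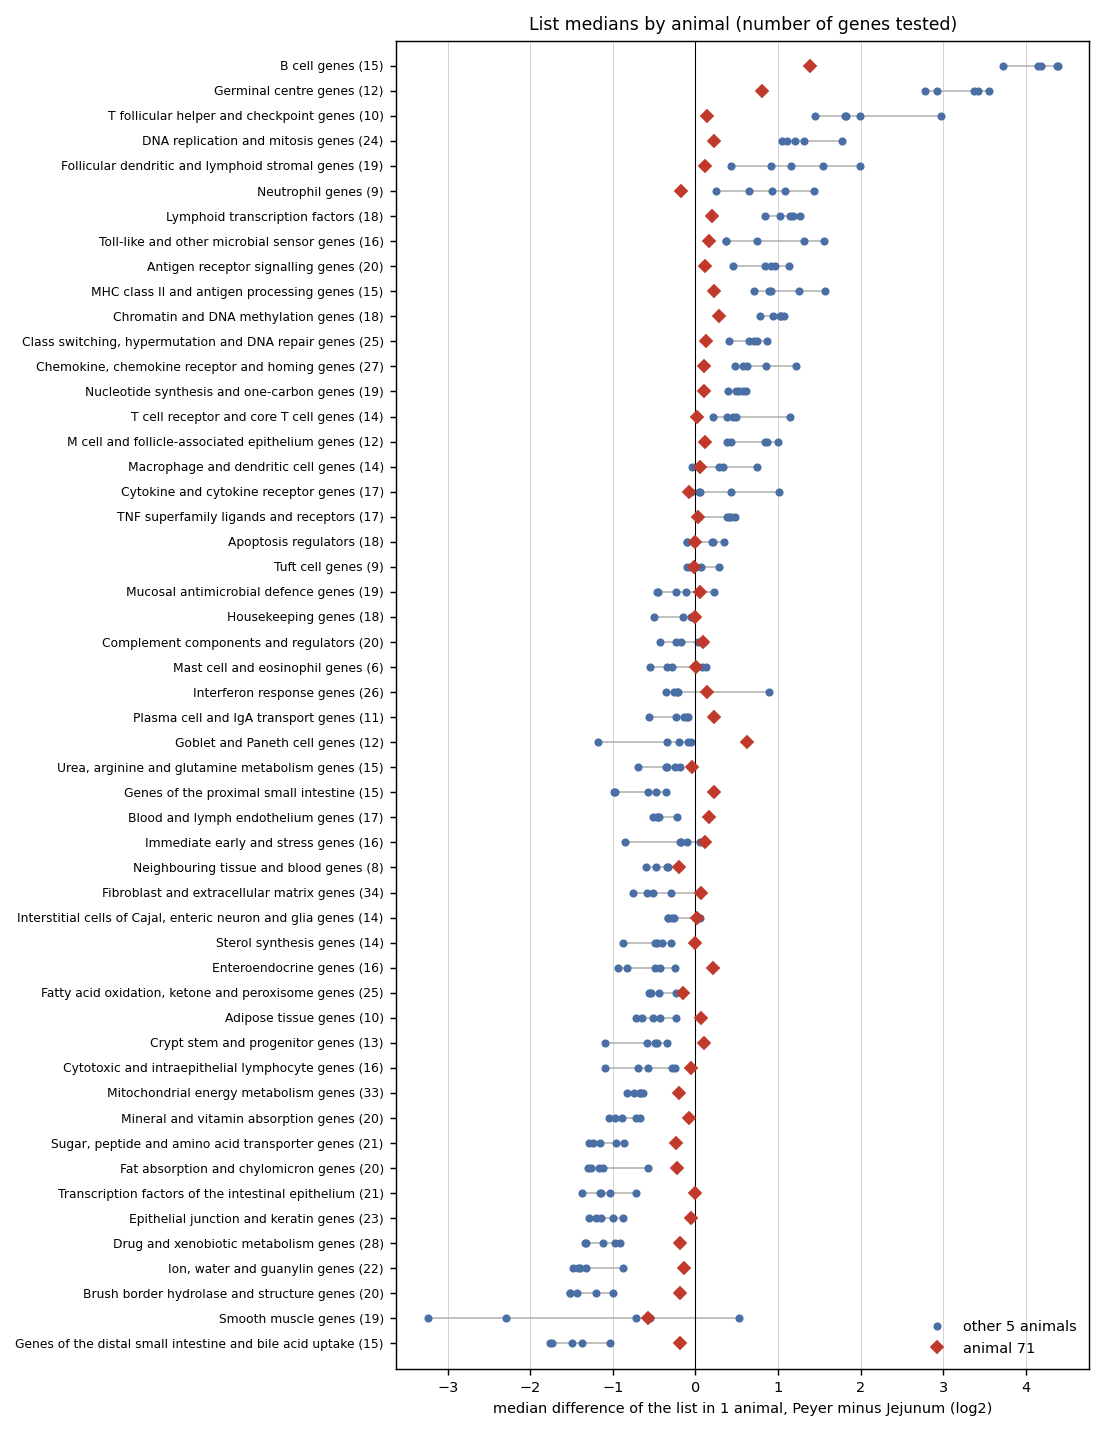
Median log2 difference, Peyer minus Jejunum, of each gene list in each animal, with animal 71 as a red diamond and the other 5 animals as blue points. In the B cell list the other animals lie between 3.73 and 4.39 and animal 71 at 1.39, and in the brush border list they lie between -1.52 and -1.0 and animal 71 at -0.19.

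The Peyer sample of animal 71 kept a small part of nearly every difference. Its difference was the smallest of the 6 animals in 606 of the 632 genes called higher and in 659 of the 780 called lower. The median over the genes called higher was 0.3 in animal 71, against 1.54 to 1.88 in the other animals, and over the genes called lower -0.28, against -1.82 to -1.26. These genes were called with animal 71 in the fit, so the figures describe the animals and test nothing. In 50 of the higher and 76 of the lower genes its sign was opposite, and 48 and 40 reached 2-fold in the direction of the call.

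On the linear scale, the excess of the Peyer over the Jejunum signal in animal 71 was a median of 8.1% of the mean excess in the other animals over the 632 higher genes, with quartiles at 4.6% and 12.8%. Only 8 genes exceeded 50%. The share was 7.7% at the median of the called B cell genes, 8.2% for germinal centre, 10.3% for replication and 12.5% for chromatin genes. The medians were 4.0% for follicular dendritic and stromal genes (-0.3% to 16.8%) and 4.6% for chemokine and homing genes (-0.3% to 13.7%). For follicular T cell genes the median was 4.8% (-3.0% to 12.6%). These ranges overlapped those of the B cell genes (3.5% to 12.9%) and germinal centre genes (2.0% to 16.3%). Among single genes the share was 6.85% for FABP6, 2.27% for GP2, 2.35% for CCR7 and 13.8% for TFF1. These shares were not tested against each other. In levels, the mean of the brush border list was 4.41 in the Peyer sample of animal 71, against 2.73 to 3.39 in the other Peyer samples and 4.2 to 4.63 in Jejunum samples. The mean of the replication list was -0.25 in that sample, 1.01 to 1.22 in the other Peyer samples and -0.5 to 0.2 in Jejunum samples. For these 2 lists the sample lay within the range of patch-free jejunum, while the mean of the B cell list (-0.71) lay between the other Peyer samples (1.55 to 1.74) and the Jejunum samples (-2.41 to -1.96).

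**Figure D5:**
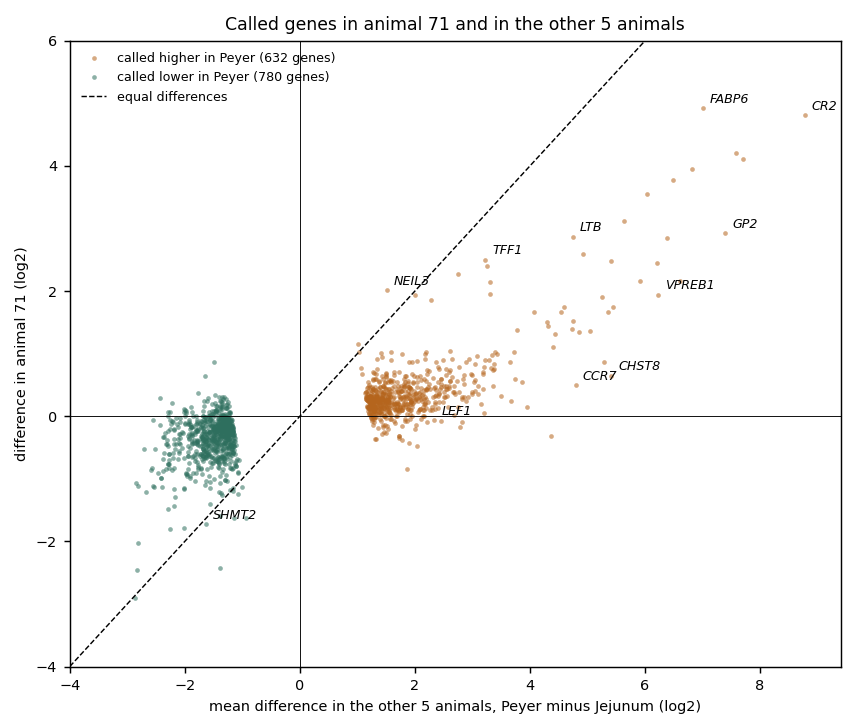
Difference in animal 71 (vertical axis) against the mean difference in the other 5 animals (horizontal axis), both Peyer minus Jejunum in log2 units, for the 632 genes called higher and the 780 called lower. The dashed line marks equal differences, and nearly all genes lie nearer to 0 in animal 71.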

How the data were processed

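Spot intensity values were read from the scanner output of Agilent Feature Extraction 10.10.1.1, deposited by the authors, with background subtracted and spatial trends removed per the file headers. Each array had 61625 spots, of which 1319 were controls, and none of the probes was saturated. The log2 values of the authors' deposited table (44600 probes, the sorted values the same in all 24 columns, median 8.24) served as an alternative. Across probes, the mean Peyer minus Jejunum difference of these values correlated by 0.956 with that of the scanner values. Per the submitters' processing notes limma was used, and no source used here states whether the authors' values were centred further. The precision is limited by the number of arrays.

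Here log2 of the processed signal minus the 75th percentile of each array was used. Testing took in the 41059 probes that no array had marked as an outlier and that were well above background throughout Peyer or throughout Jejunum (6 arrays each). limma 3.58.1 in R 4.3.3 was fitted with tissue and animal as terms, and p-values were adjusted by Benjamini-Hochberg over these probes. Calls needed an adjusted p below 0.05 together with an absolute log2 difference of 1 or more, and each gene is represented by its brightest tested probe on average over the 12 arrays. Probes took their gene names through accession (9833), symbol (14162) and other fields, and 33317 had none; names from the array's own annotation can be old. Peyer and Jejunum samples were paired by the animal that the labels name, and deviations from the tissue means correlated by 0.3 on average within an animal and -0.06 between animals (0.08 for animal 69 to 0.44 for animal 75).

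The genes named are the 20 highest and 20 lowest that were called, above background on all 12 arrays, alike in direction in 6 animals and outside the B cell, germinal centre and smooth muscle lists, and up to 6 members of each of 52 gene lists by absolute difference; some genes that meet this rule are not reported here. The comparison and the lists were chosen with earlier results of these data known. Alternatives left out each animal or Peyer array 71, changed the block, the arrays in the fit, scaling, background correction, filter, weights, threshold or probe rule, or used the authors' log2 values.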

Additional observations from a re-analysis of the deposited data

Results flagged for a closer look

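Dixon's criterion was applied to 134 of the genes named. Of these, 47 had 1 animal whose Peyer minus Jejunum difference lay apart from the other 5, where chance gives about 1 in 20. Over all 10445 named genes 13.7% did, with animal 71 apart in 736, animal 69 in 535 and each of the others in 26 to 59. Animal 71 was the one apart in 43 of the 47. Among the immune and follicle genes its log2 differences were 4.11 for MS4A1, 2.92 for GP2, 2.85 for CD79B, 1.67 for POU2AF1, 1.52 for CD79A, 1.36 for CHI3L1, 1.02 for CXCR4, 0.98 for CLU, 0.9 for SYK, 0.86 for RASGRP3, 0.74 for EBF1, 0.63 for BCL6, 0.56 for SLA-DOB, 0.5 for CCR7, 0.49 for CD40, 0.39 for SLA-DOA, 0.29 for SCG5, 0.15 for CD14 and for MFGE8, and 0.07 for IL16. All were smaller than in each of the other 5 animals.

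For genes of division and repair its differences were 0.78 (DUT), 0.57 (PARP1), 0.43 (DNMT1) and 0.37 (FANCI). For the remaining genes called higher they were 1.9 (PGAM2), 1.75 (C3H2orf40), 1.5 (HTRA4), 1.44 (LRMP), 1.31 (NPM2), 1.1 (IGFBPL1), 0.75 (KLK1), 0.65 (CHST8), 0.6 (DAPL1) and -0.31 (PTHLH). Among the genes called lower they were 0.25 (SST), -0.1 (C5), -0.11 (EHHADH), -0.14 (SLC51B), -0.15 (DSP), -0.19 (SI), -0.24 (FABP2), -0.32 (SLC2A2) and -0.33 (DPEP1), all nearer to 0 than in the other animals or above it.

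Animal 69 stood apart in 3 genes, with differences of -1.1 for ACTB, -1.47 for GAPDH and -2.61 for MDH2, against -0.41 to -0.03, -0.59 to -0.1 and -0.96 to -0.23 in the other animals. Animal 70 stood apart in CD3E, with 1.17, against -0.16 to 0.27 in the other animals.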

How the results depend on the processing

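The 1412 called genes became 1169 to 1900 when 1 animal was left out (574 to 781 higher and 595 to 1119 lower), the highest counts being those without animal 71. Without the replicate block, which ignores the pairing of tissues by animal, 1387 were called, and with the slide as block 1396; among the genes described singly in the text only PCK1 lost its call under either (-1.26 in both), while some list counts moved. Single slides gave 163 calls (140 higher, 23 lower) on slide 4, 0 (0 higher, 0 lower) on slide 5, where 327 genes had an unadjusted p under 0.05, and 1576 on slide 6, from 4 arrays each. Lower calls numbered 475 with arrays centred on the median and 442 with the authors' log2 values. A limma test against a 2-fold difference called 32 genes, all higher, and 0 lower (493 at an unadjusted p under 0.05), since it tests for a difference beyond that size. Of 3078 alternative values of single genes, 2677 kept direction and call, 386 lost the call, 12 gained one and 3 changed sign. The last were SLC10A2 on slide 5 alone (-0.08) and after normexp correction (-0.16), and ACTB after quantile normalization (0.07), neither called in any direction here. The cause was not tested. Dim probes limit MS4A1, PAX6, SHMT2 and CD70, which were not well above background on every array.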

Other observations

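PTHLH, the parathyroid hormone-related protein gene, was in none of the lists and was chosen after its values were seen. Its Peyer minus Jejunum difference was 4.24 to 4.45 log2 units in 5 animals and -0.31 in animal 71 (3.59 ± 0.63 over all 6, 4.37 ± 0.09 without animal 71; adjusted p = 0.0054 and 4.6e-06 by limma). Its level was -0.67, -0.24, -0.6, -3.83, -0.25 and -0.74 in the Peyer samples of animals 68, 69, 70, 71, 73 and 75, against -5.07, -4.68, -5.05, -3.53, -4.49 and -5.07 in their Jejunum samples. The Peyer sample of animal 71 was thus alone at the level of the Jejunum samples, and the Jejunum sample of that animal was the highest of its tissue.

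MCEMP1, a membrane protein gene named for mast cells, also chosen after its values were seen, differed by as much in animal 71 (-1.59) as in the others (-1.92 to -1.12). It was lower in Peyer samples in 6 of 6 animals (-1.42 ± 0.13, adjusted p = 0.0041 by limma). Over the genes called higher, the difference in animal 71 exceeded the mean of the others in 3, and over those called lower it lay beyond that mean in 9. Of the 5800 probes called, 2533 carried no gene name here and were not described.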
